A study of Mus musculus with 2 samples.

Results

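The genes that fold, hydroxylate, chaperone and trim procollagen were examined in lung of mouse embryos at embryonic day 14.5. They are a listed set of 10: P4ha1, P4ha2, P4hb, Plod1, Plod2, Plod3, Serpinh1, Crtap, Bmp1 and Pcolce. Each symbol was matched to a gene identifier in both deposited gene tables, and all 10 were found among the 43346 mouse genes there. The study holds 1 group of 2 RNA-seq libraries, biological replicates 1 and 2, from lung of the strain B6NCrl, and no second condition, mutant or treatment. Spike-in RNA was added, and 10.0 ng of RNA went into each library. Replicate 1 was collected on day 15 of July and replicate 2 on day 17, so the collection day and the replicate cannot be told apart. The labels call each sample both pooled by sex and a lung of 1 pup, which leaves the number of animals per library uncertain. Any p-value below compares these 2 libraries and not 2 conditions.

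Procollagen chains are made in the endoplasmic reticulum (ER). There, prolyl residues are hydroxylated to make the helix stable at body temperature, and lysyl residues are hydroxylated to prepare sugar attachment and crosslinks. The chaperone encoded by Serpinh1 binds the folded helix until it leaves the ER, and outside the cell proteinases remove the propeptides so that fibrils can form. In the embryonic lung most fibrillar collagen is made by the mesenchyme around the branching epithelium.

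The 2 libraries held 31940637 and 33167255 expected counts on mouse genes, where an expected count is an estimated number of reads that need not be whole. Spike-ins took 4.94% of all counts in replicate 1 and 3.96% in replicate 2. The labelled tissue was checked against its markers: 6 of 6 lung epithelium genes and 6 of 6 lung mesenchyme genes reached 1 TPM in both libraries, with summed levels of 2780 and 2839 TPM and of 494 and 514 TPM. TPM is the deposited abundance per transcript length, scaled to the same sum in each library. The libraries stood apart in 10 heart muscle markers, whose summed level was 661 TPM in replicate 1 against 131 TPM in replicate 2, with 8 of the 10 called lower by the test described below. Nppa of that list had 0 counts in replicate 2. Of 5 skeletal muscle markers 3 were called lower, Msln of the mesothelium list was called lower, and 2 of 5 liver markers were called higher at summed levels of 3.14 and 7.31 TPM. The cartilage list (113.8 and 117.9 TPM, with Matn1 at 0) and the bone list (4.65 and 4.67 TPM) had no such call. The part of these tissues in the members' levels was not tested, and in bulk tissue fewer cells of a type and less RNA per cell cannot be told apart.

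All 10 members were expressed in both libraries, and all 10 lay above the median of the 12864 protein-coding genes with a mean of at least 1 TPM, which was 19.65 TPM. Their own median was 61.4 TPM. For P4ha2 the place above 19.65 TPM held with all its transcripts counted. Its protein-coding transcripts alone had 19.73 and 18.86 TPM, a mean of 19.3 TPM. The levels of the members, with all transcripts counted, covered a 33.7-fold range, from P4hb at 727 ± 1.07 TPM (SD, n = 2) to P4ha2 at 21.6 ± 0.933 TPM. Only 3 members, P4hb, Serpinh1 and Crtap, stood in the highest 10% of those protein-coding genes. P4hb and Serpinh1 together carried 71.6% of the members' summed TPM in replicate 1 and 71.3% in replicate 2. The order by mean TPM was P4hb, Serpinh1, Crtap, Pcolce, Bmp1, P4ha1, Plod2, Plod3, Plod1 and P4ha2. No neighbours in it overlapped in their 2 values. The deposited credibility intervals did overlap in both libraries for Plod2 and Plod3, and for Plod3 and Plod1, so these neighbours were not separated by them. For Crtap and Pcolce the intervals overlapped in replicate 2 (119.1 to 128.8 and 111.0 to 121.0 TPM) but not in replicate 1.

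**Figure D1:**
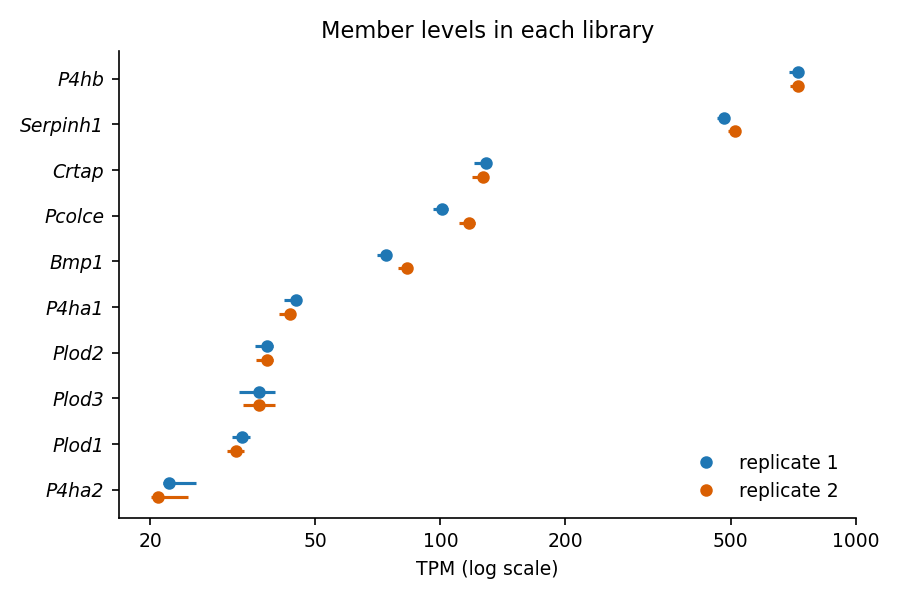
Level of each of the 10 genes in TPM (log axis) in replicate 1 and replicate 2; points are the deposited TPM and bars the deposited credibility intervals, which are drawn around the posterior mean and so can end short of the point. P4hb and Serpinh1 stand apart at the top, and the Plod genes lie close together between 32.3 and 38.3 TPM.

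The first enzyme, collagen prolyl 4-hydroxylase, is a tetramer of catalytic alpha subunits, encoded by P4ha1, P4ha2 or P4ha3, and beta subunits encoded by P4hb, which is also the general protein disulfide isomerase. P4hb (ENSMUSG00000025130.7, chr11:120560298-120573253, minus strand, GRCm38) stood at 726 and 727 TPM in replicates 1 and 2, from 38786 and 38227 expected counts. It ranked 147 among the 12864 protein-coding genes. P4ha1 (ENSMUSG00000019916.10, chr10:59323296-59373304, plus strand) had 44.8 and 43.4 TPM. P4ha2 (ENSMUSG00000018906.10, chr11:54100095-54131665, plus strand) had 22.2 and 20.9 TPM, from 973 and 886 expected counts, the fewest of any member. P4ha3, the remaining alpha subunit and not one of the 10, had 16.5 and 17.1 TPM. The beta transcript thus exceeded the summed alpha transcripts (83.5 and 81.4 TPM) by 8.69-fold in replicate 1 and 8.94-fold in replicate 2 (8.81 ± 0.179). P4ha1 gave 53.7% and 53.3% of the alpha subunit TPM, P4ha2 26.6% and 25.7%, and P4ha3 19.7% and 21.0%. The order of the alpha subunits was the same in both libraries.

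P4hb and Serpinh1, the most abundant members, also share a feature at the end of their coding sequence. Proteins that stay in the ER commonly end in a retrieval signal of the KDEL type, and the last codons of all 10 leading coding transcripts were searched for the codons of KDEL or RDEL. These ends are shown because they separate the members that carry such a signal from the rest. The last 27 coding bases and the stop codon read as follows, 5′ to 3′ on the transcript, from GENCODE M21 transcripts on GRCm38, with the 4 codons of the signal in capitals.
P4hb: gatcagaaagctgtgAAGGATGAACTGtag
Serpinh1: aagggagacaagatgCGAGATGAGTTGtag
P4ha1: aggccgtgcaccctgtcagaattggaatga
Crtap: gacttgttggagacggaagagtctgcctag
Of the 10 members, 2 ended in these codons. P4ha1 and Crtap, printed for comparison, act in the ER without this ending. The coding sequence of P4hb had 509 codons and that of Serpinh1 had 417.

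Both alpha subunit genes of the list hold a pair of neighbouring exons of which each full coding transcript carries only 1. In P4ha1 the pair lies at chr10:59354340-59354410 and chr10:59355350-59355420 (GRCm38, plus strand), and each exon is 71 nt long. In P4ha2 the pair lies at chr11:54126238-54126297, 60 nt long, and chr11:54126346-54126411, 66 nt long. The exons are shown because transcripts that differ by them are measured apart. Capitals mark bases that the 2 exons of a pair share in alignment, and the sequences come from GENCODE M21 transcripts.
P4ha1 upstream exon: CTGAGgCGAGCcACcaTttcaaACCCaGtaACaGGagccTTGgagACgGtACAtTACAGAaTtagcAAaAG
P4ha1 downstream exon: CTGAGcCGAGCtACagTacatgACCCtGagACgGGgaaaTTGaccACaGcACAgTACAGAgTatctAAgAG
P4ha2 upstream exon: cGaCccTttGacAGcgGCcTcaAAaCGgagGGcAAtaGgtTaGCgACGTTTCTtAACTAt
P4ha2 downstream exon: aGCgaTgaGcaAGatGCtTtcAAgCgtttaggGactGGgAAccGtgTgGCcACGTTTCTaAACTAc
The P4ha1 pair was identical at 42 bases (59.2%) and the P4ha2 pair at 34 (51.5% of the longer exon).

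Transcripts with the downstream exon made up most of P4ha1. P4ha1-203, which carries it, stood at 37.8 and 36.4 TPM, and P4ha1-201, with the upstream exon, had 5.85 and 6.04 TPM. The upstream exon was thus in 13.0% and 13.9% (13.5 ± 0.627) of the TPM of transcripts that hold either. P4ha1-201 also has a longer 3′ end, so reads there count toward this share as well as reads on the exon. In P4ha2 the downstream exon, carried by P4ha2-201, was in 28.5% and 31.9% (30.2 ± 2.40). The 2 transcripts with the upstream exon of P4ha2 were divided differently in the libraries. P4ha2-202 had 336 expected counts in replicate 1 and 124 in replicate 2, while P4ha2-215 had 294 and 423. The difference was 2.31 times the combined posterior SD for P4ha2-202 and 1.58 times for P4ha2-215. In replicate 1 the deposited TPM intervals of these 2 transcripts overlapped (3.39 to 9.05 for P4ha2-202 and 3.81 to 9.16 for P4ha2-215), so neither could be called the leading one there. In replicate 2 they did not overlap, and P4ha2-215 was the higher.

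**Figure D2:**
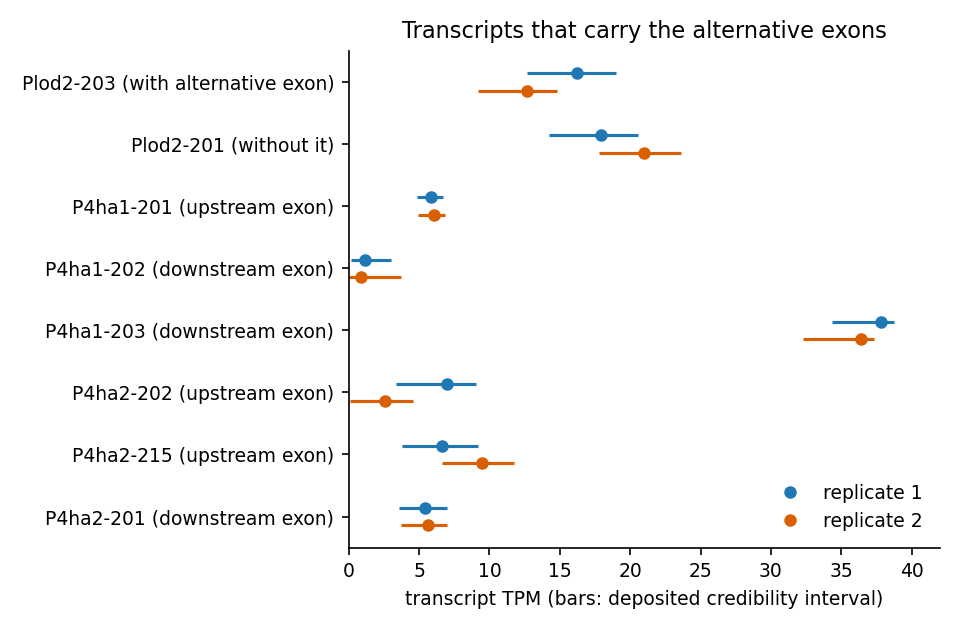
TPM of the transcripts of Plod2, P4ha1 and P4ha2 that differ by the alternative exons, in replicate 1 and replicate 2, with the deposited credibility intervals as bars. P4ha1-203 dominates its gene at 37.8 and 36.4 TPM, whereas the 2 main Plod2 transcripts lie between 12.6 and 20.9 TPM.

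The lysyl hydroxylases Plod1, Plod2 and Plod3 stood at nearly the same level when all transcripts of each gene were summed. Plod1, which acts on lysines of the helix, was measured from ENSMUSG00000019055.11 (chr4:147909753-147936767, minus strand) at 33.3 and 32.3 TPM. Plod2, which acts on the telopeptides that flank the helix (ENSMUSG00000032374.10, chr9:92542223-92608428, plus strand), had 38.2 and 38.3 TPM. Plod3, which also transfers sugars to hydroxylysine (ENSMUSG00000004846.6, chr5:136987019-136996648, plus strand), had 36.7 TPM in each library. Plod2, the highest, exceeded Plod1, the lowest, by 1.15-fold and 1.19-fold, whereas P4ha1 exceeded P4ha2 by 2.02-fold and 2.08-fold. The shares of the summed lysyl hydroxylase TPM were 30.8% and 30.1% for Plod1, 35.3% and 35.7% for Plod2, and 33.9% and 34.2% for Plod3. Other genes overlap Plod2 (Gm38391) and Plod3 (Znhit1 and Mir702), and reads on them cannot be told apart where strand was not used in counting, which the sources used here do not state.

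**Figure D3:**
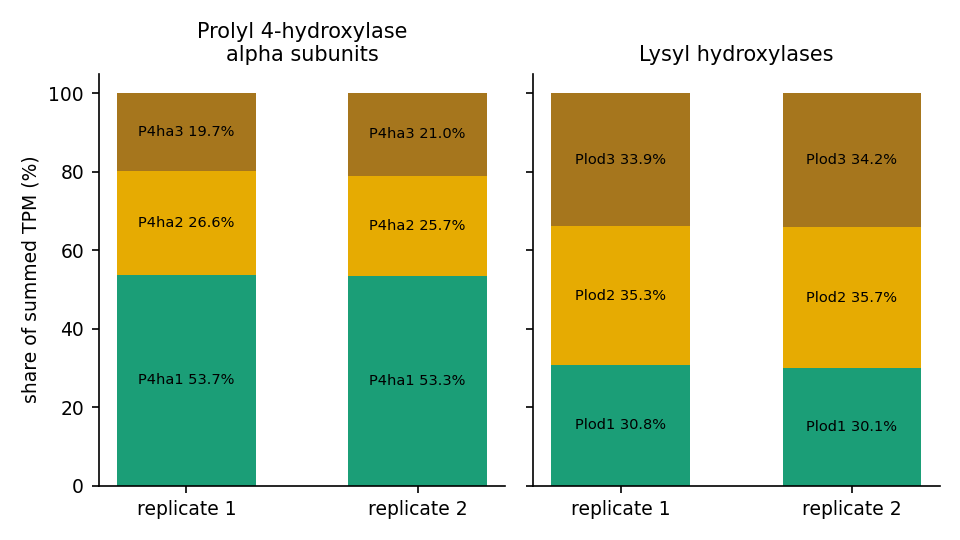
Share of summed TPM (percent) of each alpha subunit gene of prolyl 4-hydroxylase (left) and each lysyl hydroxylase gene (right) in the 2 libraries. P4ha1 gives 53.7% and 53.3% of its family, while each Plod gene gives between 30.1% and 35.7%.

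Plod2 has a 63-nt alternative exon, at chr9:92601985-92602047 (GRCm38, plus strand), and the longer form that includes it is the one known for telopeptide lysine hydroxylation. The exon is shown in capitals with 30 coding bases of each neighbour, and below it the junction that forms without it, both from GENCODE M21 transcripts, because the isoform share rests on these sequences.
Plod2 with the exon: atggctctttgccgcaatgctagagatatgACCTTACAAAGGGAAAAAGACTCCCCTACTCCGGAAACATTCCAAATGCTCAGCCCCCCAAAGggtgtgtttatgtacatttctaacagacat
Plod2 without the exon: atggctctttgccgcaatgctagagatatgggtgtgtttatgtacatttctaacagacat
Plod2-203, which includes the exon, stood at 16.2 TPM in replicate 1 but 12.6 TPM in replicate 2. Plod2-201, which joins the neighbours directly, had 17.9 and 20.9 TPM. Both forms were present in both libraries at levels of the same order. The exon was in 47.5% of their summed TPM in replicate 1 and 37.6% in replicate 2 (42.6 ± 6.98). The count of Plod2-203 differed between the libraries by 1.64 times its combined posterior SD (1289 against 1008 expected counts), less than 2 such SDs, so the shares were not separated beyond the uncertainty of assigning reads to the 2 forms. The 2 transcripts also differ at their ends. A retained-intron transcript that spans the exon, Plod2-205, had 55 and 66 counts and was not counted in the share.

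Serpinh1, also known as Hsp47, encodes the collagen-specific chaperone of the ER. The gene (ENSMUSG00000070436.7, chr7:99345376-99353239, minus strand) measured 482 and 512 TPM in replicates 1 and 2 (497 ± 21.2), from 23303 and 24863 expected counts, and ranked 236 among protein-coding genes. The fibrillar collagen chains, which are among its clients, summed to 2765 and 2806 TPM. Serpinh1 thus stood at 0.174 and 0.182 TPM per TPM of fibrillar chain. Basement membrane chains, which summed to 551 and 581 TPM, were not counted in this ratio. P4hb exceeded Serpinh1 by 1.51-fold and 1.42-fold. The leading transcript of Serpinh1, Serpinh1-201, carried 96.0% and 95.1% of the gene's TPM. That share is of the 2 transcripts deposited for the gene, while GENCODE M21 has 7, and 0 of the 2 had the same length there.

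Crtap encodes the helper subunit of the complex that hydroxylates a particular proline of the collagen chain, together with the enzyme encoded by P3h1 and the prolyl isomerase encoded by Ppib. Crtap (ENSMUSG00000032431.6, chr9:114375134-114390675, minus strand) had 129 and 127 TPM (128 ± 1.28), from 4261 and 4255 expected counts. P3h1 had 35.2 and 32.6 TPM, and Ppib had 476 and 488 TPM. Crtap exceeded P3h1 by 3.66-fold and 3.89-fold, and Ppib exceeded Crtap by 3.70-fold and 3.85-fold. The transcripts of the 3 partners were therefore far from equal, with Crtap between the other two in both libraries. The gene 4930520O04Rik overlaps Crtap.

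Bmp1 encodes the proteinase that removes the C-propeptide of fibrillar procollagens, and Pcolce encodes the secreted protein that enhances this cleavage. Bmp1 (ENSMUSG00000022098.9, chr14:70474558-70520234, minus strand) measured 74.0 and 83.3 TPM in replicates 1 and 2, from 6034 and 6818 expected counts. Pcolce (ENSMUSG00000029718.10, chr5:137605103-137613784, minus strand) had 101 and 117 TPM, from 3304 and 3725 expected counts. Both were higher in replicate 2, and their ratio was alike, with 1.37 and 1.41 TPM of Pcolce per TPM of Bmp1. Bmp1 carried 98.7% and 99.1% of the TPM of its family. Its paralog Tll1 had 0.95 and 0.68 TPM, and Tll2 had 3 expected counts in each library, no more than the 3 counts that 0 observed reads still allow. Pcolce carried 94.9% and 95.5% of the enhancer TPM, with its paralog Pcolce2 at 5.43 and 5.52 TPM. The genes Fbxo24 and Gm36266 overlap Pcolce.

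Bmp1 is known to make a short form and a longer form called mammalian tolloid. The deposited transcript tables list only Bmp1-201 for this gene, the long form with 991 codons, while GENCODE M21 has 7 transcripts. The share of the long form could not be computed, and reads of a short form on shared exons cannot be told apart from those of Bmp1-201. For Pcolce the leading transcript Pcolce-201 had 91.1 and 99.2 TPM. A 555-nt retained-intron transcript, Pcolce-209, had 3.38 and 9.17 TPM and is part of the ratio of Pcolce to Bmp1 given above. With protein-coding transcripts alone Pcolce had 94.4 and 104.0 TPM.

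Short transcripts that code no protein weighed on some levels because TPM divides by length. P4hb-202, a processed transcript of 414 nt, carried 12.7% and 12.9% of the TPM of P4hb but only 1.67% and 1.73% of its expected counts. With protein-coding transcripts alone, P4hb stood at 634 TPM in both libraries and Crtap at 118 TPM. Plod3-202, annotated as coding but only 600 nt long, carried 18.0% and 14.2% of the TPM of Plod3. The tables listed 54 transcripts of the 10 members, and 51 had the same length in GENCODE M21. The order of the members by mean TPM was the same with protein-coding transcripts alone. Plod2 (34.15 and 33.59 TPM) and Plod3 (33.09 and 33.78 TPM) then overlapped in their 2 values, and Plod3 was the higher in replicate 2. The place of Plod3 above Plod1 rested on counting the short Plod3-202. The leading transcript Plod3-201 had 26.5 and 28.6 TPM, below Plod1-201 at 32.0 and 31.05 TPM.

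The libraries differed little in the members. Each ratio below is replicate 2 over replicate 1 on the log2 scale, from expected counts rounded to whole numbers and scaled with the TMM method of edgeR, with 0.5 added to each count. An exact two-sided binomial test compared the 2 counts of every gene with a mean of at least 1 TPM, with Benjamini-Hochberg adjustment over all 14870 of them. Of the 10 members, 0 were called at an adjusted p under 0.05 and a difference of at least 2-fold, beside 169 of all 14870 genes (1.14%). Among the 7326 genes with counts at or above those of the lowest member, 6 were called (0.0819%), so a call among the members would have been unusual at their depth. At an unadjusted p under 0.05 by the same binomial test, without the 2-fold limit, 8 members passed, beside 4922 of the 14870 genes. Those 14870 include genes with far fewer counts than the members, which pass less easily. No share at the members' depth was taken for this threshold, so no difference is read from it. The exact test of edgeR at the common dispersion of the libraries, a coefficient of variation of 9.58%, called 0 members and 106 of all genes, and 0 members and 568 genes had an unadjusted p under 0.05. That dispersion was estimated from the same 2 libraries, so the differences under test also set the noise, and differences as small as the members' could hardly pass.

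At any size of difference, 5 members passed the adjusted p of the binomial test. Higher in replicate 2 were 2 of 10, Bmp1 and Pcolce, beside 11.0% of all genes tested. Lower were 3 of 10, P4hb, P4ha1 and P4ha2, beside 11.5%. At the members' depth 29.3% of genes passed in either direction, and 5 of 10 is too few genes to read a difference from that share. Bmp1 had a log2 ratio of 0.11 (95% counting interval 0.06 to 0.16, adjusted p = 0.000146, exact binomial test). Pcolce had 0.11 (0.04 to 0.18, adjusted p = 0.00973, exact binomial test). Both genes act outside the cell on the same propeptide, and their intervals overlapped.

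All 3 genes of prolyl 4-hydroxylase in the list were lower in replicate 2. P4hb had a log2 ratio of -0.08 (-0.10 to -0.06, adjusted p = 9.84e-14, exact binomial test), a small difference made detectable by its depth. P4ha1 had -0.10 (-0.17 to -0.02, adjusted p = 0.0413) and P4ha2 had -0.20 (-0.33 to -0.06, adjusted p = 0.0190), both by the exact binomial test. In the edgeR exact test the smallest adjusted p of any member was 1. The call of P4ha1 depended on the setting: its adjusted p in the exact binomial test was 0.0655 when the total count set the scale and 0.0588 without the filter on low values, which left 4 members past the threshold. The remaining 5 members did not pass, at log2 ratios of 0.03 for Serpinh1 (adjusted p = 0.0728, exact binomial test, and 0.0178 when the total count set the scale), 0.03 for Plod3, -0.06 for Crtap, -0.07 for Plod2 and -0.10 for Plod1.

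The median log2 ratio of the 10 members was -0.07, beside 0.00 for genes of at least their depth, and the median size of the ratio was 0.0906, beside 0.0640. All 10 lay within the central 95% of those genes, which ran from -0.20 to 0.22. When the spike-in sum set the scale, the ratio of the median gene moved to 0.34 and all 10 members were higher in replicate 2, from 0.14 for P4ha2 to 0.46 for Bmp1. This scaling adds the same constant to every gene, so the order of the members is the same by construction. A TPM and a count ratio need not have the same sign, since TPM is scaled over all features, spike-ins included, and uses lengths weighted by isoform. P4hb, for example, was level in TPM summed over its transcripts.

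**Figure D4:**
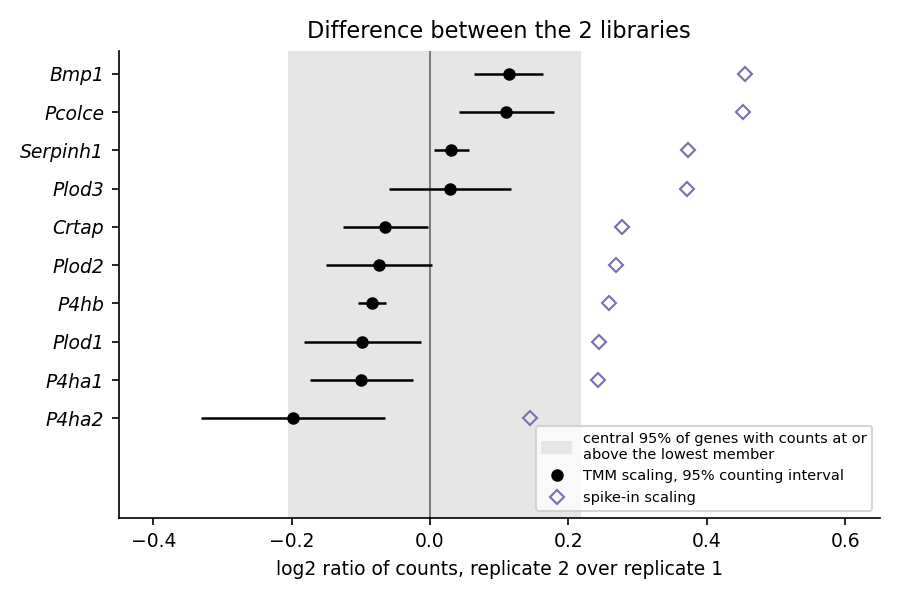
Log2 ratio of counts, replicate 2 over replicate 1, for the 10 genes; black points with bars are TMM-scaled values with 95% counting intervals, open diamonds are spike-in-scaled values, and the grey band is the central 95% of the 7326 genes with counts at or above the lowest member. All 10 black points lie inside the band, and all diamonds lie above 0.

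The other genes of the pathway were read from lists, again as counts beside the 11.0% and 11.5% of all genes that passed higher and lower. At or above the depth of the lowest member these shares were 14.8% and 14.5%, and many list genes have far more counts than that, which makes smaller differences pass. No gene of these lists was called at 2-fold, and the counts below rest on the binomial test, which covers counting error only. Of 15 other helix-modifying and chaperone genes, 14 reached 1 TPM in both libraries, with a list median of 33.9 TPM beside 16.2 TPM for all genes tested. In this list 0 genes were higher and 4 lower in replicate 2. The highest was Sparc, a collagen-binding protein, at 1122 ± 11.4 TPM, followed by Ppib at 482 ± 8.72 TPM and Fkbp9, an ER prolyl isomerase, at 144.8 ± 1.56 TPM. P3h1 was among the lower ones at a log2 ratio of -0.15 (adjusted p = 0.00361, exact binomial test), so both Crtap at -0.06 and its partner enzyme had negative ratios. Of the pathway lists, general ER chaperones had the highest median, 286 TPM over 11 genes, led by Hspa5 at 816 ± 43.5, Calr at 712 ± 5.34 and Pdia6 at 549.6 ± 6.61 TPM. P4hb thus stood between Hspa5 and Calr. In that list 5 of 11 were lower in replicate 2 and 0 higher, and each of the 5 had at least 18582 expected counts in a library.

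Procollagen leaves the ER in enlarged COPII carriers, and all 15 export genes reached 1 TPM in each library, and their median of 62.6 TPM was close to that of the members. The coat genes Sec13 at 229.7 ± 10.4, Sar1a at 195 ± 2.42 and Sec31a at 137 ± 2.40 TPM led this list, in which 1 gene was higher and 3 lower. Outside the cell, only 4 of 8 other procollagen proteinase and enhancer genes reached 1 TPM. The highest were Adamts2, an N-propeptide proteinase, at 8.15 ± 0.969 TPM, Pcolce2 at 5.47 ± 0.0636 and Adamts3 at 3.90 ± 0.318 TPM. Bmp1 exceeded Adamts2 by 9.92-fold in replicate 1 and 9.43-fold in replicate 2. In the list 1 gene was higher and 1 lower, and Mep1a and Mep1b had 0 counts in both libraries. Of 5 crosslinking genes 4 reached 1 TPM, led by Lox at 128 ± 9.27, Loxl1 at 28.2 ± 2.10 and Loxl2 at 20.6 ± 2.28 TPM, with 1 higher and 1 lower.

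The substrates were led by Col3a1 at 1240.2 ± 25.3, Col1a1 at 834 ± 1.32 and Col1a2 at 514 ± 8.62 TPM. Of 11 fibrillar chain genes 10 reached 1 TPM in both libraries, 3 were higher and 3 lower, and the list median was 25.7 TPM. The 3 lower were the chains just named. The 3 higher were Col2a1, Col27a1 and Col11a2, at 25.7, 19.5 and 4.31 TPM. Col2a1 and Col11a2 also stand in the cartilage list, where 3 of 8 tested genes passed the adjusted p as higher and 0 as lower. Summed fibrillar chains amounted to 37.4 and 33.7 TPM per TPM of Bmp1. All 8 basement membrane chain genes reached 1 TPM, with Col4a1 at 259 ± 6.25, Col18a1 at 162 ± 8.98 and Col4a2 at 85.2 ± 6.13 TPM, and 2 were higher and 1 lower.

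Prolyl and lysyl hydroxylases need oxygen, iron and ascorbate. Of 4 ascorbate genes 2 reached 1 TPM, Slc2a1, a glucose transporter that also carries oxidised ascorbate, at 64.7 ± 5.52 TPM and Slc23a2, an ascorbate transporter, at 11.4 ± 2.12 TPM, while Slc23a1 had 0.38 ± 0.297 TPM. In this list 0 genes were higher and 1 lower. Related hydroxylases outside collagen had 5 of 5 matched genes at 1 TPM, led by Jmjd6 at 50.9 ± 3.67, Egln2 at 39.1 ± 1.64 and the oxygen sensor Egln1 at 12.4 ± 0.799 TPM, with 0 higher and 2 lower. P4ha1, P4ha2 and Plod2 are known targets of hypoxia-inducible factors. Of 8 other such targets 5 passed the adjusted p as lower in replicate 2 and 0 as higher, with a median log2 ratio of -0.21. The list was not uniform. Its other 3 genes had ratios above 0 that did not pass: Car9 at 0.37, Ankrd37 at 0.17 and Vegfa at 0.16. Slc2a1 and Egln3 stand in more than 1 of the lists. The highest in level were Bnip3 at 68.0 ± 8.78, Slc2a1 and Pdk1 at 38.0 ± 3.71 TPM. Among the members, the log2 ratios stood at -0.10 for P4ha1, -0.20 for P4ha2 and -0.07 for Plod2, and only the first pair passed the adjusted p. Of all 10 members 6 had ratios below 0, among them also P4hb, Plod1 and Crtap, and 4 had ratios above 0. The part of hypoxia-inducible factors in these ratios was not tested. Heart muscle markers were lower in the same library, and their part in these ratios was not tested either.

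**Figure D5:**
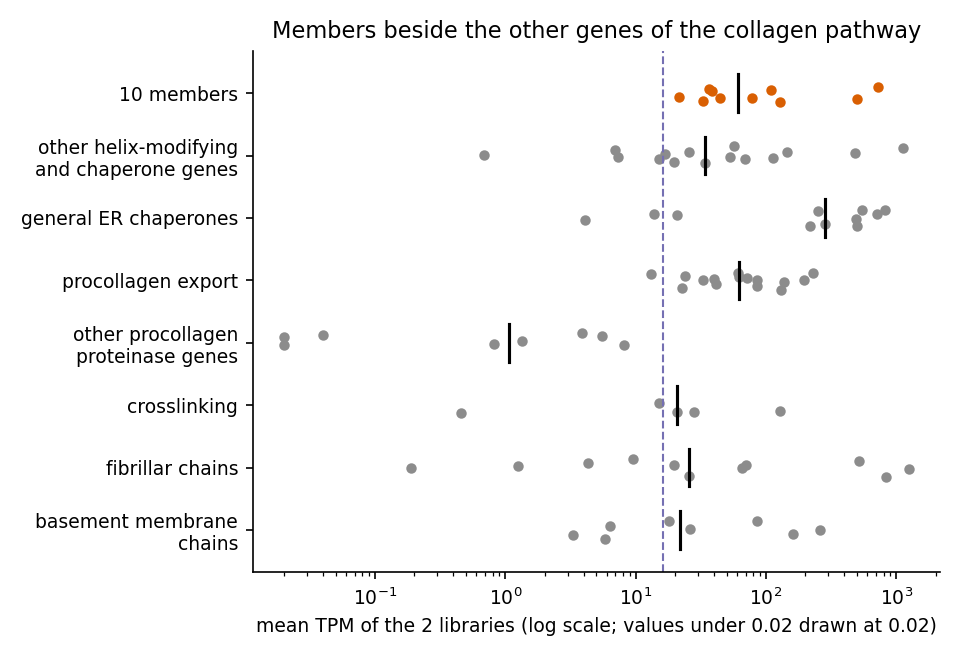
Mean TPM of the 2 libraries (log axis) for the 10 genes (orange) and for the other pathway lists (grey); black bars are list medians and the dashed line is the median of all genes tested, 16.2 TPM. The 10 genes have a median of 61.4 TPM, close to the export genes, and all lie right of the dashed line.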

How the data were processed

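The members and lists were chosen with earlier results of these data known. For each library the authors deposited gene and transcript tables which, per the file headers, hold expected counts and TPM, with posterior standard deviations and TPM credibility bounds, and the percent of a gene's TPM per transcript. The deposited read-me names mm10, GENCODE M4 and transcriptome alignments; aligner, quantification program and use of strand: not given in the sources used here. Symbols, coordinates (1-based, GRCm38) and transcript sequences came from GENCODE M21 by unversioned identifier, for 42462 of 43346 genes. For tests, the expected counts, rounded to whole reads, were scaled by TMM in edgeR 4.0.16 (R 4.3.3), and each gene's pair of counts was tested with the exact binomial test (scipy 1.17.1), which was tested on simulated data. Intervals are exact at 95% (Clopper-Pearson) and cover counting error only, since no source mentions molecular identifiers. The count total per library sets the precision. The labels name the libraries biological replicates. With 1 group, the binomial p-values set the difference between these 2 libraries against counting error only, and they hold no measure of biological spread. Named genes were the 10 members, the 3 highest of each pathway list, any of them called, and P3h1, Ppib, P4ha3, Tll1, Tll2 and Pcolce2; other list members, the overlapping genes and the marker genes Nppa, Msln and Matn1 were named after their values were seen. The exon shares of P4ha1 and P4ha2 and the use of coding transcripts alone were added after the data were seen. Alternatives were other scalings (total count, DESeq2 1.42.0 size factors, spike-ins), no filter, edgeR's exact test, a pseudocount of 5, posterior mean TPM and protein-coding TPM. Of the listed symbols, Ero1a, Ero1b, Ctage5, Lepre1, Leprel1, Leprel2, Leprel4 and Lect1 were not matched under these names, which does not show that the genes are absent.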

Additional observations from a re-analysis of the deposited data

How the results depend on the processing

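The count of 169 genes called between the libraries became 290 with spike-in scaling (70.0% of them higher, against 31.4%), 538 without a filter on low values and 106 with edgeR's exact test. The count of members called at 2-fold was 0 in all 5 alternatives tried, and the count past the adjusted p at any size went from 5 to 10 with spike-in scaling and to 0 with edgeR's exact test. With spike-in scaling the log2 ratio changed sign for P4ha1 (0.24), P4ha2 (0.14), P4hb (0.26), Plod1 (0.24), Plod2 (0.27) and Crtap (0.28), as the scale itself moved by 0.34 for the median gene. The P4hb to alpha subunit ratio of 8.81 was 8.59 with posterior mean TPM, 8.34 with expected counts and 8.34 with coding transcripts alone. The P4ha1 share of 53.5% was 52.2%, 63.2% and 58.0% in the same order. The Plod2 share of 35.5% was 38.9% with expected counts and 34.1% with coding transcripts alone. Expected counts are not divided by length, and the cause of the other shifts was not tested. With 2 libraries, leaving out either gives the other's value, which lies within 1 SD of the mean by construction and shows no stability. The long-form share of Bmp1 gave no value, since 1 transcript is listed. No paired analysis was possible because there is 1 group only. Among results for single members, 39 alternatives other than leaving out a library kept the call and direction or stayed within 1 SD, and 21 levels moved by more than 1 SD. With total-count scaling P4ha1 lost its call (-0.09) and Serpinh1 gained one (0.04), and without a filter 4 members passed. Each member had at least 886 counts in a library, and the precision is limited by there being 2 libraries.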
